A study of Mus musculus with 3 samples.

Results

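The dermal fibroblasts described here were 526 single cells of mouse ear skin, out of 37961 cells kept from 3 single-cell RNA libraries. The cells were chosen by their own transcript counts. A kept barcode had at least 500 genes, at least 1000 unique molecular identifiers (UMIs, 1 per captured RNA molecule) and at most 10% mitochondrial UMIs. A fibroblast then had at least 2 UMIs of Dpt (dermatopontin, a small matrix protein of the dermis) and at least 10 UMIs of the collagen genes Col1a1 and Col3a1 together. It had at most 1 UMI of Angptl7, at most 1 UMI over the cartilage genes Col2a1, Acan, Col9a1 and Cnmd, 0 UMIs of the leukocyte gene Ptprc, 0 UMIs of the lymphatic gene Prox1, and at most 1 UMI of the pericyte gene Rgs5. The levels of these rule genes are given below as a description only.

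Each library came from untreated mice: C57BL/6J wild type at an age of 4 weeks (young WT), C57BL/6J wild type at 8 weeks (adult WT), or Langerin-DTA at 8 weeks (adult Langerin-DTA). The Langerin-DTA transgene makes diphtheria toxin A under human Langerin regulatory sequence, which removes Langerhans cells, the dendritic cells of the epidermis, so that the transgene is directed at another cell type than the one described here. Per the labels' protocols, wild-type controls in Langerin-DTA experiments were littermates, but whether this adult WT pool, named C57BL/6J, came from such litters is unclear. The labels give no strain name for the transgenic mice beyond Langerin-DTA. The ears of several mice of both sexes were pooled for each library (5 males and 3 females, 6 males and 4 females, and 4 males and 6 females). Lymphatic endothelium, blood endothelium, CD45-positive cells and the remaining cells, negative for both CD45 and CD31, were sorted and combined at the same share, so the number of fibroblasts in a library says nothing about their number in the skin. With 1 library for each group no test was possible. The intervals below are exact 95% counting intervals, which treat each UMI as independent. They leave out the differences between cells, between mice and between pools.

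Dermal fibroblasts build and renew the connective tissue of the skin. They secrete fibrillar collagens, which are trimmed, cross-linked and coated with small proteoglycans outside the cell, and they make elastic fibres, basement membrane components, hyaluronan and the proteases that remodel all of these. Fibroblasts differ with their place in the skin, for example beneath the epidermis, around hair follicles, around vessels or next to fat. They also release chemokines and complement factors and respond to the cytokines of neighbouring immune cells.

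Levels are UMIs of a gene per 1000000 summed UMIs of the fibroblasts of a library (CPM), and they follow the order young WT, adult WT and adult Langerin-DTA unless stated otherwise. They come from the 3' ends of transcripts and are not divided by gene length, so a level is compared with the level of the same gene elsewhere. The libraries held 12864, 13600 and 13540 barcodes and between 124590777 and 137441575 UMIs, and 92.8% to 96.4% of the barcodes were kept. Cd207, the mouse gene of Langerin, was at 186, 135 and 0.702 CPM over all kept cells, so that the library labelled Langerin-DTA held few Cd207 transcripts. Between 34 and 47 barcode sequences were shared by any pair of libraries.

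The rule found 124, 209 and 193 fibroblasts, which were 1%, 1.66% and 1.49% of kept cells. Their summed UMIs were 2484162, 3344091 and 2355954. A median fibroblast held 19856.5, 15356 and 11595 UMIs, so that depth per cell was highest in young WT and lowest in adult Langerin-DTA. The median mitochondrial share was 0.797%, 1.42% and 1.36%. From Xist and Y-linked transcripts, 50% of the sex-called fibroblasts were female in young WT (95% interval 40.7 to 59.3%), 61.0% in adult WT (53.8 to 67.9%) and 72.7% in adult Langerin-DTA (65.6 to 79.0%). The share of female cells thus differed between the libraries, and ratios within 1 sex are given below for several genes. The last term of the rule, on Rgs5, left 124 of 202 cells in young WT, 209 of 231 in adult WT and 193 of 198 in adult Langerin-DTA, so it took out a larger part of the young cells.

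Since depth differed, shares of cells with a UMI are also given with each cell thinned to 5000 UMIs, which left out 0, 8 and 18 cells. Leukocytes, which should lack genes of fibroblasts, are given beside them as a measure of free RNA. Their median depth was 10369, 7639 and 6018 UMIs.

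Dpt had a median of 16, 16 and 14 UMIs per fibroblast. Col1a1, a chain of type I collagen, had medians of 196, 89 and 42 UMIs per cell, and Col3a1, the chain of type III collagen, 365.5, 143 and 85. Both collagens were thus far above the cut of 10 UMIs in most cells of every library. Just inside the limit on Dpt were 36 cells with 2 UMIs, and just outside it 60 cells with 1 UMI that met every other term. The cells inside had 15681 CPM of Col1a1, 437 CPM of Pdgfra and 889 CPM of Tnfaip6, and the cells outside 14432, 402 and 840 CPM, so that the limit cut through cells of close levels. Another 270 cells with 0 UMIs of Dpt met the rest of the rule and had 9933 CPM of Col1a1 and 249 CPM of Pdgfra. On the side of the perichondrial cells, 17 members had 1 UMI of Angptl7, and 32 cells with 2 to 4 UMIs were left out, with Col1a1 at 6751 CPM inside and 4553 CPM outside.

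Most of the marker genes that the rule did not use were highest in fibroblasts, some by a small margin. Vim, S100a4, Thy1 and Pdgfrb were higher in another class. Over all libraries Pdgfrb was at 174 CPM against 624 CPM in pericytes, and Thy1 at 183 CPM against 261 CPM in leukocytes. Pdgfra, the PDGF receptor that marks fibroblasts, was at 427, 613 and 584 CPM, against 124 CPM in perichondrial-type cells, 4.88 CPM in pericytes and 3.55 CPM in leukocytes. Dcn, which codes for the collagen-binding proteoglycan decorin, was at 10190, 14247 and 12715 CPM. Over all libraries it was at 12575 CPM, not far above the 9050 CPM of perichondrial-type cells. Tnfaip6, a secreted protein that modifies hyaluronan, was at 3398, 2948 and 3426 CPM and was found in 89.5%, 88.0% and 87.6% of fibroblasts (81.7%, 83.8% and 84.7% thinned), against 0.680% to 1.61% of leukocytes. Lama2, a laminin chain, was at 1613, 1758 and 1400 CPM. Coch (cochlin, a secreted matrix protein) was at 148, 5.98 and 32.7 CPM, and at least 1 UMI was present in 12.9%, 1.91% and 3.63% of cells (8.78%, 1.31% and 3.24% thinned; 0.208% to 0.491% of leukocytes). Coch was thus no general marker of these fibroblasts, whereas Tnfaip6 was found in most cells of each library.

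Genes outside the rule were ranked by the ratio of their level to that in the highest of 7 other cell classes. These were perichondrial-type cells, chondrocytes, pericytes with smooth muscle, lymphatic and blood endothelium, keratinocytes and leukocytes, chosen by similar marker counts. Cldn10, a claudin, was at 58.3 CPM in fibroblasts over all libraries and at 0.459 CPM in keratinocytes, the next class. Tmeff2, a transmembrane protein with follistatin domains, was at 472 against 13.1 CPM, and complement C3 at 522 against 15.4 CPM. Postn (periostin, a matricellular protein) was at 5941 CPM against 285 CPM in pericytes. These classes were defined by transcript counts, so the ratios describe the classes and test nothing. Free RNA of fibroblasts was present elsewhere at a low level: Col1a1 was at 107 CPM, Col3a1 at 108 CPM and Dcn at 117 CPM in leukocytes.

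**Figure D1:**
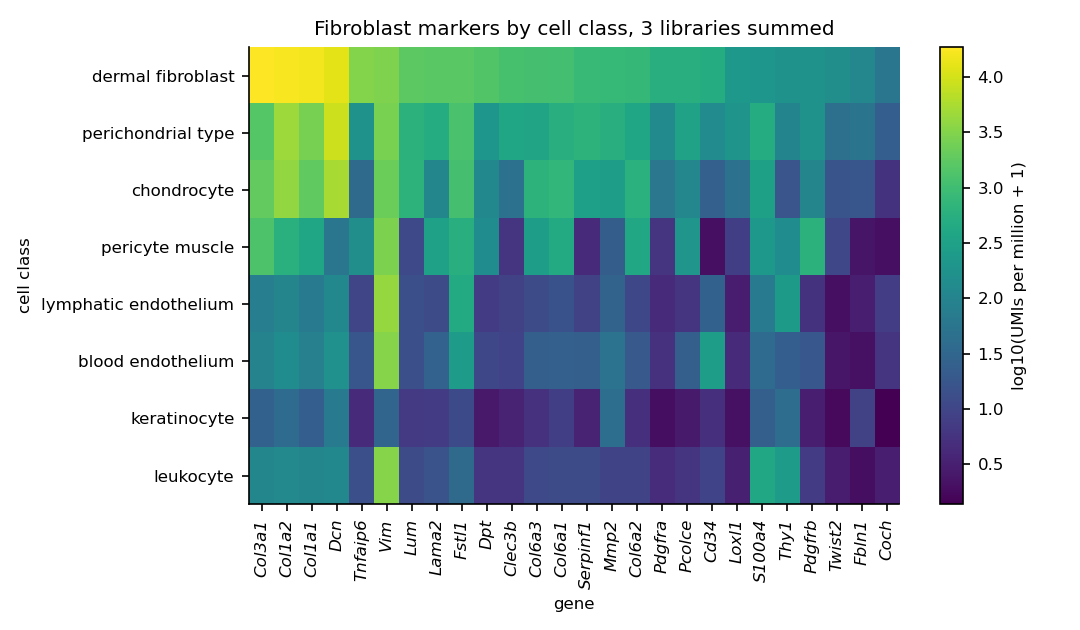
Level of fibroblast marker genes in dermal fibroblasts and 7 other cell classes, with the 3 libraries summed; colour is log10 of UMIs per 1000000 plus 1. Fibroblasts held the highest level of Tnfaip6 (3222 CPM) and Pdgfra (548 CPM), whereas Vim, S100a4, Thy1 and Pdgfrb were higher in other classes.

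Markers of other cell types were low in fibroblasts, with differences between libraries. The 8 leukocyte markers summed to 11.3, 11.4 and 9.34 CPM, the 5 lymphatic markers to 8.86, 11.1 and 4.24 CPM and the 5 adipocyte markers to 6.04, 5.08 and 2.55 CPM, with Adipoq at 0 in every library. The 10 keratinocyte markers summed to 463, 627 and 640 CPM. The 8 markers of blood endothelium summed to 10.5, 194 and 62.4 CPM, and 1, 18 and 2 fibroblasts also met the rule for blood endothelial cells. Doublet calls were made on 2, 15 and 4 fibroblasts. Endothelial transcripts were therefore highest in adult WT, and their part in the gene differences below was not tested other than by leaving out cells.

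The fibroblasts were grouped into 8 sub-clusters to describe how they varied among themselves. Clusters 1 to 8 held 106, 85, 73, 70, 64, 62, 42 and 24 cells, and each held cells of all 3 libraries. Among the 10 genes highest in each cluster over cells outside the class were 4 to 6 fibroblast markers and at most 1 marker of another class. The rule genes Dpt, Col1a1 and Col3a1, which the selection required, were counted among these markers. The count is thus a description and no support for the label. The genes that led the clusters also defined them and are given as a description. At a lower resolution there were 5 clusters and at a higher one 11, so the number of groups is not a fixed property of these cells.

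Cluster 1 was led by Thbs4 (thrombospondin 4, a matricellular protein), at 318 CPM in the cluster and 17.7 CPM in the other fibroblasts. Ptn, the growth factor pleiotrophin, was at 560 against 44.7 CPM, and Bnc2, a zinc finger protein, was found in 87.7% of its cells against 22.6%. Cluster 2 was led by Cntn4, a contactin of cell adhesion, at 87.3 against 8.63 CPM. Itm2a, a membrane protein, was at 1232 against 258 CPM in it. Postn was at 13581 against 4275 CPM there, and Tmeff2 at 1060 against 344 CPM. Cluster 3 was led by Ltbp2, a protein of elastic microfibrils, at 171 against 13.1 CPM.

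Cluster 4 combined matrix, lipid and chemokine genes. Tnc (tenascin C, an adhesion-modulating glycoprotein) was at 2206 against 261 CPM and found in 75.7% of cells against 21.7%. Apoe, the lipid carrier apolipoprotein E, was at 4326 against 1287 CPM, and Igfbp3, a binding protein of insulin-like growth factors, at 575 against 117 CPM. Cxcl9, a chemokine of T cells, was at 151 against 16.8 CPM. This cluster held 12, 39 and 19 cells, and cluster 1 held 25, 38 and 43 cells. Both clusters were thus close in size in adult WT, whereas cluster 1 was the larger in the other libraries.

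Cluster 6 was led by genes that mark fibroblasts of the vessel sheath and fascia. Pi16, a peptidase inhibitor homologue, was at 1435 against 173 CPM and found in 88.7% of its cells against 35.8%. Smpd3, a sphingomyelinase, was at 292 against 4.56 CPM, and Anxa3, an annexin, at 244 against 28.7 CPM. The adventitial list of 10 genes summed to 4150 CPM there, above the sums of all other clusters, which ran from 563 to 1808 CPM. Cluster 6 held 6, 18 and 38 cells.

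Among the leading genes of cluster 8, the smallest, was C7, a component of the membrane attack complex of complement, at 432 against 23.9 CPM and with at least 1 UMI in 29.2% of the cells against 5.18%. Chrdl1, an antagonist of bone morphogenetic proteins, was at 327 against 16.3 CPM and found in 70.8% of its cells against 10.8%. Chrdl1 was thus found in most cells of the cluster and C7 in a minority.

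Clusters 5 and 7 carried transcripts of other cell types. In cluster 5 the keratins Krt14 and Krt5 were at 946 and 599 CPM, against 6.26 and 2.91 CPM elsewhere, but at least 1 UMI of Krt14 was found in 21.9% of its cells only. In cluster 7 the endothelial receptor Flt1 was at 373 against 8.74 CPM, in 35.7% of its cells, and Pecam1, the gene of CD31, at 238 against 13.4 CPM. Doublet calls fell on 9 of the 64 cells of cluster 5 and 12 of the 42 cells of cluster 7, and on 0 cells of the other clusters. Coch was at 397 CPM in cluster 7 and 28.1 CPM elsewhere, and Wif1, an inhibitor of Wnt ligands, at 372 CPM in cluster 5 and 10.8 CPM elsewhere. Values without both clusters are given below for several genes and lists. Of 174 genes of the gene lists past 1.5-fold for age, 41 came under it or turned without both clusters, 41 in male-called and 31 in female-called cells. For genotype these were 31, 36 and 37 of 112 genes.

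**Figure D2:**
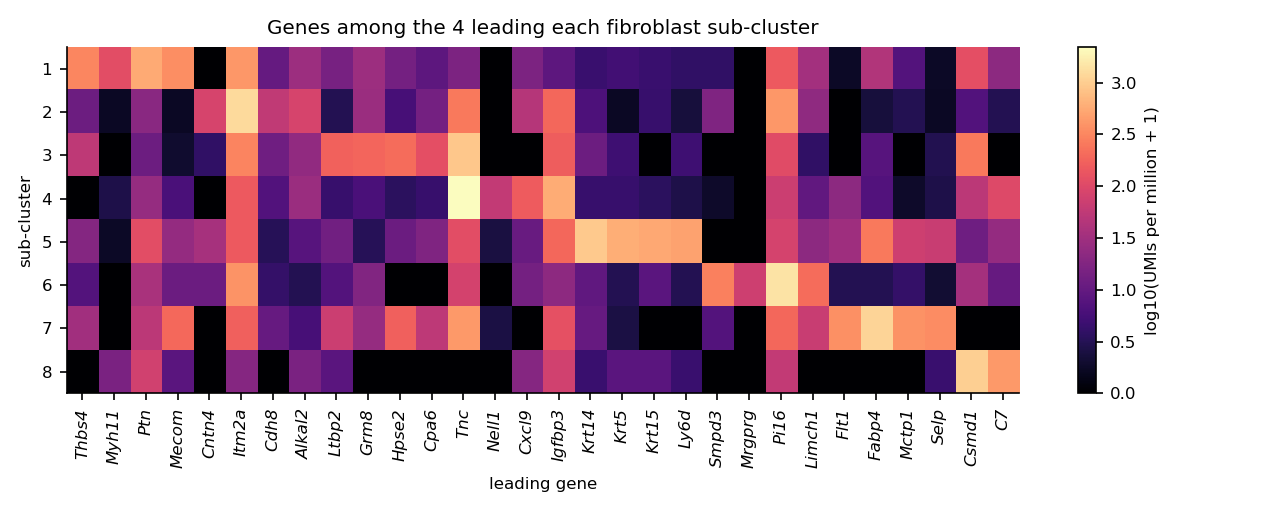
Level of genes among the 4 leading each of the 8 sub-clusters of dermal fibroblasts, with the 3 libraries summed; rows are sub-clusters, columns genes, and colour is log10 of UMIs per 1000000 plus 1. Cluster 6 stands out with Pi16 (1435 CPM), cluster 4 with Tnc (2206 CPM) and cluster 8 with C7 (432 CPM).

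The first comparison asked how fibroblasts of adult WT ears differed from those of young WT ears. At least 1.5-fold lower in adult WT were 8 of 11 tested fibril-associated collagens, 7 of 16 basement membrane genes, 6 of 7 contractile genes and 6 of 13 imprinted genes, whereas 13 of 22 interferon response genes, 6 of 12 complement genes and 8 of 15 chemokines and cytokines were higher. Genes were compared where both libraries together held at least 30 UMIs and either reached 10 CPM. Of 9082 such genes, 850 (9.36%) were at least 1.5-fold higher in adult WT and 683 (7.52%) at least 1.5-fold lower. The median log2 ratio over all these genes was -0.01, and median-of-ratios scaling would move every ratio by 0.01. The adult WT library also serves as the reference of the second comparison, so the values of both comparisons are not independent.

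Of the genes named as higher in adult WT, Myoc (myocilin, a secreted glycoprotein; chr1:162639155-162649693, GRCm38) had 106 CPM in young WT, against 564 and 554 CPM in the adult libraries, WT first. Its log2 ratio of adult over young WT was 2.41 (2.22 to 2.60), and the share of cells with at least 1 UMI was 32.3%, 54.5% and 58.0%, or 19.4%, 48.1% and 48.6% with each cell thinned to 5000 UMIs. Both adult libraries were thus high for Myoc and close to each other, and 0.610% to 2.08% of leukocytes held a UMI. Perichondrial-type cells had more Myoc (500, 1122 and 1256 CPM), as did chondrocytes (593, 2368 and 2441 CPM). It was at least 1.5-fold higher in adult WT in 4 of the 7 other classes, but lower in pericytes (42.3, 1.40 and 0 CPM). The difference was thus not particular to dermal fibroblasts. C7 had 1, 268 and 39 UMIs (0.403, 80.1 and 16.6 CPM), so only a single molecule was counted in young WT. Its log2 ratio was 7.64 (5.15 to 12.95) over all cells and 7.89 in male-called cells. The ratio of 1.20 in female-called cells rests on 3 counts put in place of 0 in young WT. Of the adult WT UMIs of C7, 30.6% lay in 1 cell.

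Rxfp1, the receptor of relaxin, was at 1.21, 52.9 and 49.2 CPM, but in 0.806%, 7.66% and 2.07% of the cells (0.370%, 5.88% and 2.01% thinned). Of its adult Langerin-DTA UMIs, 63.8% lay in 1 cell. Smpd3, the sphingomyelinase that led cluster 6, was at 1.61, 40.1 and 72.6 CPM (log2 ratio 4.64), in 2.42%, 7.66% and 10.9% of cells (0.536%, 5.01% and 8.58% thinned). In leukocytes Rxfp1 had no UMI and Smpd3 was found in 0.260% to 0.502% of cells. These 2 genes therefore differed in a small part of the cells. Hist1h1b, a replication-dependent histone, was at 2.01, 42.5 and 24.6 CPM, but 100% of its adult WT UMIs lay in 1 cell. Without that cell no UMI was left in adult WT. With 3 counts put in place of 0 the log2 ratio was -0.43, which is no measured difference. Rps29 (ribosomal protein; 351, 1527 and 1487 CPM), Hes1 (Notch target; 151, 623 and 513 CPM) and Atp5k (ATP synthase subunit; 25.8, 116 and 145 CPM) were also high in adult WT fibroblasts, and they were at least 1.5-fold higher in all 7 other classes too.

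Among the genes named as lower in adult WT, Coch (chr12:51593341-51605771, GRCm38) had the lowest ratio, with 367, 20 and 77 UMIs and a log2 ratio of -4.63 (-5.36 to -3.98). The ratio was -7.92 in female-called and -1.91 in male-called cells, and 40.6% of the young WT UMIs of Coch lay in 1 cell. Itm2a (chrX:107397099-107403376), a leading gene of cluster 2, was at 835, 235 and 288 CPM, a log2 ratio of -1.83 (-1.95 to -1.71), so that young WT stood apart from both adult libraries. Rspo3, an R-spondin that amplifies Wnt signals, was at 45.5, 12.9 and 11.9 CPM (-1.82). The muscarinic receptor Chrm2 was at 58.0, 3.59 and 5.52 CPM (-4.01), but it was found in 8.87% of young WT cells, and 1 cell held 42.4% of its young WT UMIs. Il31ra, a cytokine receptor, was at 436, 131 and 146 CPM, and it was lower in all 7 other classes as well. Col7a1, the chain of the anchoring fibrils beneath the epidermis, was at 81.3, 9.87 and 23.4 CPM (-3.04), but without clusters 5 and 7 the ratio was -0.58.

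The remaining genes lower by the naming rule covered several functions. Thbs4 was at 106 and 18.8 CPM in young and adult WT (log2 ratio -2.50). The imprinted genes H19 and Zim1 had ratios of -2.65 and -2.12, the histone deacetylase gene Hdac9 -1.75, the sulfotransferase gene Hs6st3 -1.64 and the non-coding transcript 1200007C13Rik -2.17. For H19, 97.0% of the adult WT UMIs lay in 1 cell. H19 was also lower in 6 of the 7 other classes.

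**Figure D3:**
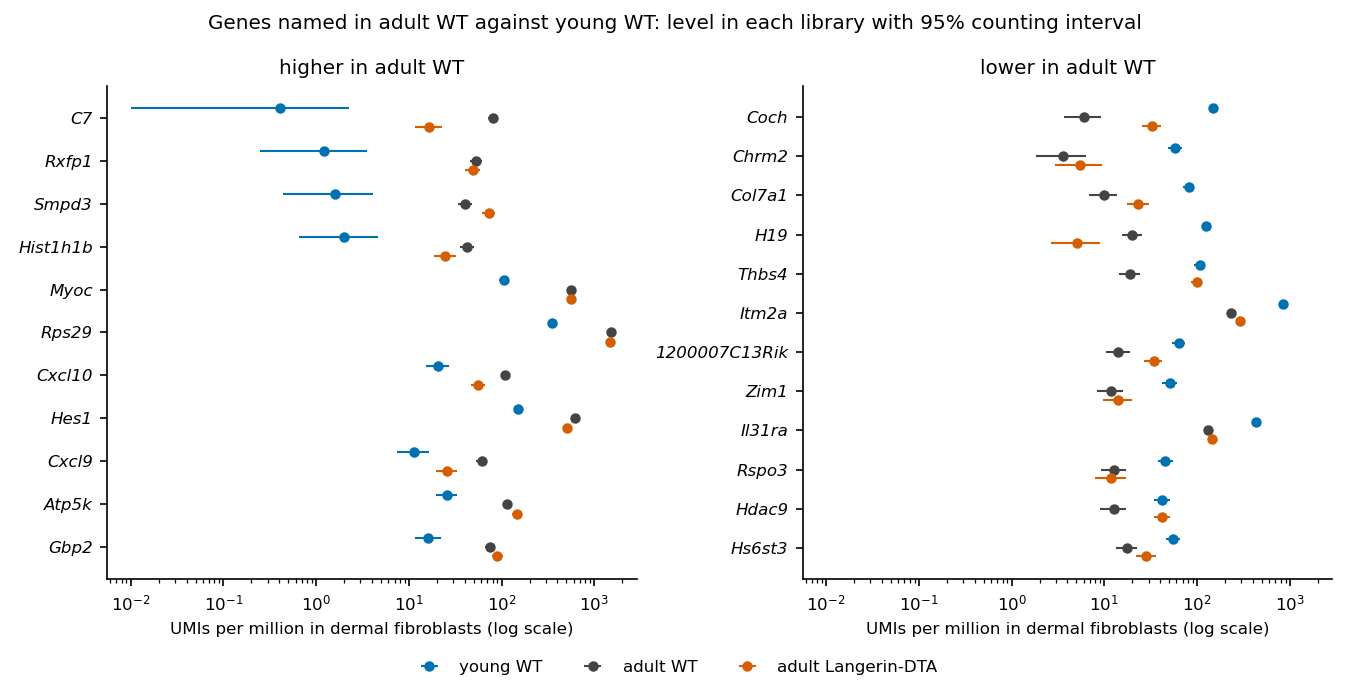
Levels of 11 genes named as higher and 12 named as lower in adult WT than in young WT fibroblasts, in UMIs per 1000000 on a log axis, with 95% counting intervals; points are the 3 libraries. For Myoc the adult points (564 and 554 CPM) lie apart from young WT (106 CPM), and for Itm2a the young point (835 CPM) lies above both adult ones.

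Fibrillar collagens are the main load-bearing fibres of the dermis. Of 6 tested genes outside the rule, 2 (Col5a1 and Col11a1) were past 1.5-fold lower and 0 higher, with a median log2 ratio of -0.42, against 7.52% of all tested genes past the lower limit and an overall median of -0.01. Col1a2, the partner chain of Col1a1, was at 22982 and 16807 CPM (-0.45). Col5a1, a chain of the type V collagen that starts fibrils, was at 1107 and 724 CPM (-0.61), and its ratio came under 1.5-fold in 6 of 12 other settings. Col11a1 was at 47.5 and 19.7 CPM (-1.27), but at -0.34 in male-called cells and -0.24 without clusters 5 and 7. Neither gene was thus past 1.5-fold in every setting. The rule genes Col1a1 and Col3a1 had ratios of -0.75 and -0.82, given as a description.

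Of collagens that coat or link fibrils, most of the tested genes were lower. Of 11 tested genes, 8 were at least 1.5-fold lower in adult WT and 0 higher, with a median of -0.70. Col6a3, a chain of the microfibrillar type VI collagen, was at 1514 and 900 CPM (-0.75), whereas its partner chains Col6a1 (-0.35) and Col6a2 (-0.03) did not reach 1.5-fold. Col12a1, on the fibril surface, was at 190 and 91.5 CPM (-1.05), Col14a1 at 873 and 536 CPM (-0.70) and Col16a1 at 175 and 104 CPM (-0.75). Col6a3 and Col12a1 stayed past 1.5-fold in all 12 other settings, whereas Col14a1 was at -0.38 with cells of 4000 to 20000 UMIs and Col16a1 at -0.49 without clusters 5 and 7. Col8a1 had a ratio of 0.29.

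Basement membrane genes are shared by fibroblasts with epithelium and vessels. Of 16 tested genes, 7 were past 1.5-fold lower and 0 higher (median -0.49). Of type IV collagen, the chains Col4a1 and Col4a2 were at 594 and 313 CPM (-0.93, -1.04 to -0.81) and at 366 and 186 CPM (-0.97). The laminin chain Lamb1 was at 229 and 120 CPM (-0.93), whereas Lama2 had a ratio of 0.12 and Lamc1 of -0.21. Col15a1, a collagen next to basement membranes, was at 182 and 103 CPM (-0.82). Without clusters 5 and 7, which carried most keratin and endothelial transcripts, the median of this list was -0.55, but the laminin chain Lamc3 turned from -1.27 to 0.75.

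In the list of elastic fibre genes, 2 of 17 tested genes were past 1.5-fold lower and 0 higher (median -0.33), a count not far from the background. Mfap2, a microfibril protein, was at 536, 237 and 209 CPM (-1.17), and Emilin1, at the surface of elastic fibres, at 34.2 and 17.3 CPM (-0.98). Elastin itself, Eln, was at 642 and 510 CPM (-0.33). Genes that modify or cross-link collagen had 2 of 24 past 1.5-fold lower, with Sparc at 16268 and 9771 CPM (-0.73; -0.14 in male-called and -1.32 in female-called cells) and the lysyl oxidase gene Lox at 302 and 310 CPM (0.04). Small proteoglycans had 1 lower and 1 higher of 10 tested: Ogn (osteoglycin; chr13:49608046-49624501, GRCm38) was at 212, 632 and 535 CPM (1.57, 1.43 to 1.71), and fibromodulin, Fmod, at 21.3 and 6.58 CPM (-1.70; -0.15 in female-called cells). Ogn was thus the only small proteoglycan gene past 1.5-fold higher, and it stayed past 1.5-fold in all 12 settings.

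Matricellular and adhesive proteins were lower in 7 of 19 tested genes and higher in 1 (median -0.39). Thbs1, which binds cells and activates TGF-beta, was at 245 and 104 CPM (-1.23), Nov (CCN3) at 44.3 and 19.4 CPM (-1.19), and Cthrc1, a secreted protein near collagen, at 426 and 170 CPM (-1.33; -0.53 with cells of 4000 to 20000 UMIs). Postn, abundant in clusters 2 and 3, was at 6217, 5965 and 5615 CPM, a ratio of -0.06, and fibronectin, Fn1, at 1761 and 1385 CPM (-0.35). Proteases and their inhibitors went both ways, with 4 of 24 higher and 3 lower. Timp3, an inhibitor of metalloproteinases bound to matrix, was at 451 and 773 CPM (0.78). Of the hyaluronan synthases, Has1 was lower (489 and 291 CPM, -0.75, but -0.47 in male-called cells) and Has2 higher (116 and 192 CPM, 0.72).

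Contractile genes were few and low in most cells. Of 7 tested, 6 were past 1.5-fold lower and 0 higher in adult WT, with a median of -2.60. Acta2, smooth muscle actin, was at 116, 9.27 and 22.5 CPM (-3.64), and tropomyosin 1, Tpm1, at 169, 83.1 and 148 CPM (-1.02). Myh11, smooth muscle myosin, was at 62.0 and 0.897 CPM (-6.11). Single cells held much of these transcripts: without the cell with most UMIs of the gene Acta2 was at -1.29, Myh11 turned to 0.57, and the median of the list was -1.29. In male-called cells Myh11 was at -0.11. So few UMIs of Myh11 were left in these settings that neither 0.57 nor -0.11 measures a difference. Since Acta2 and Myh11 also mark the pericytes that the rule separated by Rgs5, their markers are set beside: the 8 pericyte and muscle markers summed to 219, 148 and 166 CPM, of which Myh11 was 1, and the pericyte gene Higd1b had 0, 1 and 0 UMIs. The part of pericyte RNA in these values was not tested.

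Imprinted growth genes, a set expressed mainly before weaning in many tissues, were lower in 6 of 13 tested genes and higher in 0 (median -0.56). Besides H19 and Zim1, Mest was at 34.2, 13.5 and 25.9 CPM (-1.35), Peg3 at 567, 337 and 305 CPM (-0.75) and Dlk1 at 145, 78.7 and 55.2 CPM (-0.89; -0.25 in female-called cells). Igfbp3 was at 328 and 158 CPM (-1.05), whereas the growth factor Igf1 was at 576 and 577 CPM (0.00). Of the growth factor list, Gas6, a ligand of TAM receptors that bind dying cells, was at 391, 922 and 693 CPM (1.24), and 5 genes of 14 were higher and 4 lower.

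Of 7 tested genes that mark fibroblasts of the hair follicle, 5 were lower and 1 higher (median -1.82). Crabp1, a retinoic acid binding protein, was at 27.0 and 1.79 CPM (-3.91), and Hhip, an inhibitor of hedgehog ligands, at 16.9 and 3.59 CPM (-2.24), and both stayed past 1.5-fold in all 12 settings. Wif1 was at 182 and 18.5 CPM (-3.29), but its ratio was 3.62 without clusters 5 and 7 and 0.36 in male-called cells. Papillary markers were lower in 4 of 9 tested, with a median of -0.56 that was -0.17 without clusters 5 and 7. Adventitial markers were higher in 3 of 9, with Pi16 at 176, 329 and 453 CPM (0.90; 0.06 in male-called and 1.78 in female-called cells). The Wnt list went both ways, with 4 of 20 higher and 6 lower, among them the inhibitor Dkk3 at 61.6 and 26.9 CPM (-1.19) and the receptor Ror1 at 168 and 88.8 CPM (-0.92).

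The list of chemokines, which draw leukocytes into tissue, and cytokines had 8 of 15 tested genes higher in adult WT and 0 lower, with a median of 0.63 against 9.36% of all tested genes past the higher limit. Ccl11, the eosinophil attractant eotaxin, was at 32.6, 120 and 198 CPM (1.88, 1.53 to 2.25). Cxcl10, induced by interferon, was at 20.5, 109 and 55.6 CPM (2.41, 1.99 to 2.87), with at least 1 UMI in 5.65%, 15.8% and 11.4% of cells (3.94%, 11.4% and 9.34% thinned), against 2.37% to 3.21% of leukocytes, which can make it too. Cxcl9, its neighbour on chromosome 5, was at 11.3, 60.7 and 25.5 CPM, but 49.3% of its adult WT UMIs lay in 1 cell. Cxcl12, the main homeostatic chemokine of stroma, was at 407, 463 and 486 CPM (0.18), and Cxcl1 at 434 and 549 CPM (0.34). Cxcl12 and Cxcl1, found at higher counts, thus did not reach 1.5-fold.

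Complement genes were higher in 6 of 12 tested and lower in 0 (median 0.50). C3, the central component, was at 240, 610 and 694 CPM (1.35, 1.21 to 1.48), and Clu (clusterin, an inhibitor of the terminal complex) at 3.62, 35.0 and 31.4 CPM (3.27). Serping1, the C1 inhibitor, was at 823 and 1052 CPM (0.35). Both adult libraries were above young WT for C3 and Clu. Lipid and steroid genes were higher in 6 of 18 and lower in 3. Apod (apolipoprotein D, a carrier of small lipids) was at 747, 2293 and 3061 CPM (1.62, 1.54 to 1.69), Apoe at 1179, 2136 and 1673 CPM (0.86), and Hsd11b1, which regenerates active glucocorticoid, at 13.3, 45.2 and 39.0 CPM (1.76). Fabp4, a fatty acid binding protein of fat and capillary endothelium, was at 6.04, 274 and 79.4 CPM, in the same order as the blood endothelial markers (10.5, 194 and 62.4 CPM). Its log2 ratio was 5.50 over all cells, 1.76 with cells low in keratin and endothelial UMIs and 1.80 without clusters 5 and 7. In cluster 7 Fabp4 was at 1109 CPM, against 54.8 CPM in the other fibroblasts. Other than by leaving out cells, the part of endothelial RNA in the values of Fabp4 was not tested.

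Interferon response genes were higher in 13 of 22 tested and lower in 0, with a median of 0.77. The guanylate binding protein Gbp2, a defence GTPase (chr3:142620602-142638008, GRCm38), had 40, 252 and 212 UMIs, or 16.1, 75.4 and 89.98 CPM, a log2 ratio of 2.23 (1.74 to 2.75). Gbp5 had 3, 64 and 16 UMIs (3.99), and the immunity-related GTPase Iigp1 was at 3.62, 80.4 and 78.9 CPM (4.47). Isg15, a ubiquitin-like modifier, was at 2.01, 13.2 and 31.8 CPM (2.71). Other genes of the list did not reach 1.5-fold, among them Irf1 at 787 and 752 CPM (-0.07) and Ifitm3 at 492 and 598 CPM (0.28). Without clusters 5 and 7 the median was 0.44. MHC class I genes were higher in 6 of 13 tested and lower in 1 (median 0.58), with B2m at 424 and 636 CPM (0.58; under 1.5-fold in 5 of 12 settings), H2-D1 at 162 and 261 CPM (0.69; 0.48 with cells low in keratin and endothelial UMIs) and the proteasome activator gene Psme1 at 41.1 and 81.6 CPM (0.99).

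Interferons act through promoter elements, so the bases before the start of these genes were searched. The 250 bases upstream of each gene start were taken from RefSeq (GRCm38.p6), in which 11 of the 13 interferon list genes that were higher in adult WT had 12 promoters. An interferon-stimulated response element (ISRE, TTTCNNTTTC) was found on either strand in 9 of the 12 promoters (75%), in 3 of 10 promoters (30%) of the tested genes that were not higher, and in 2.98% of all 32851 promoters. A gamma-activated sequence (GAS, TTCNNNGAA) was found in 3 of the 12 (25%), in 4 of the 10 (40%) and in 7.02% of all. A match describes the letters and is no evidence of binding. The genes of this list are known for interferon response, so matches are frequent in the list whatever their levels here (18 of 31 promoters with an ISRE).

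Shown are the 250 upstream bases of 5 interferon list genes that were past 1.5-fold higher in adult WT in all 12 settings, because they include promoters with an ISRE near the start, with repeated ISREs, with both elements and with neither. Motif matches are in capitals, and each sequence is on the coding strand, 5′ to 3′. Gbp2 is at chr3:142620413-142620662 on the plus strand, Gbp5 at chr3:142496684-142496933 on the plus strand, Isg15 at chr4:156200819-156201068 on the minus strand, Cxcl10 at chr5:92348890-92349139 on the minus strand and Cxcl9 at chr5:92328080-92328329 on the minus strand.
Gbp2: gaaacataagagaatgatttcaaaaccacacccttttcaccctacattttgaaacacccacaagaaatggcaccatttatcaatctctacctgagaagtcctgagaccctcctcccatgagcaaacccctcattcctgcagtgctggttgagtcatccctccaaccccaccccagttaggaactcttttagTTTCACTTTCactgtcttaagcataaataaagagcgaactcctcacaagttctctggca
Gbp5: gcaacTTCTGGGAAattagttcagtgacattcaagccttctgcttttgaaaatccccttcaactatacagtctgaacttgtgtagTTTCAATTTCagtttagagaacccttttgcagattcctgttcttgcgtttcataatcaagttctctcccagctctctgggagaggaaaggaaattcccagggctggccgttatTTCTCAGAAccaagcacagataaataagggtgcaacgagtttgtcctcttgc
Isg15: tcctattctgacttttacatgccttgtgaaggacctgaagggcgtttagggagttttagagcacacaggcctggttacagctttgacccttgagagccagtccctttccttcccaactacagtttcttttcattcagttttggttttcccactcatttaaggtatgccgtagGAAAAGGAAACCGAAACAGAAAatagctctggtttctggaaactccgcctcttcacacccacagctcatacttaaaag
Cxcl10: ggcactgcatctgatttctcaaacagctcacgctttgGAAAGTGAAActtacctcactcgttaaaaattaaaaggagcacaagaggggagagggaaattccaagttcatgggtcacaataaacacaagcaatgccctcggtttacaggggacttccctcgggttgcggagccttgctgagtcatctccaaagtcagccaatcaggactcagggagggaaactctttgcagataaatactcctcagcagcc
Cxcl9: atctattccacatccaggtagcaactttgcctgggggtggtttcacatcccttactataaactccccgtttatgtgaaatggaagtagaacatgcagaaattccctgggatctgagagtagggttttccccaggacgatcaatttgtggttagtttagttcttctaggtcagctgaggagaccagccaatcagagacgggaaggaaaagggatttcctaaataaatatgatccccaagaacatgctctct
Gbp2 had an ISRE that began 59 bases before the RefSeq start. The GENCODE start of Gbp2 given above lies within this window, so by that annotation the ISRE is inside the gene. Gbp5 had an ISRE at 165 bases and GAS matches at 245 and 52 bases before the start. Isg15 had 3 overlapping ISRE matches at 78, 72 and 66 bases, which appear as 1 run of capitals. Cxcl10 had an ISRE at 213 bases. For Cxcl9 neither set of letters was present in the window. Gbp2, Isg15 and Cxcl10, each with an ISRE, did not share a pattern over the 3 libraries: Isg15 was highest in adult Langerin-DTA, Cxcl10 in adult WT, and Gbp2 was close in both. For Isg15, however, 40% of the adult Langerin-DTA UMIs lay in 1 cell.

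Other lists were near the background. Immediate early genes, which rise during tissue dissociation, had 0 of 25 higher and 1 lower (median -0.08), with Fos at 5360, 5538 and 5178 CPM and Jun at 2805, 2537 and 2424 CPM. The secretory pathway had 1 higher and 1 lower of 20 (median -0.09), with the chaperone Hspa5 at 659 and 667 CPM, so its level was close in both WT libraries. Of 14 circadian clock genes 1 was higher and 0 lower, and of 11 heat shock genes 1 was higher and 0 lower. Among fibroblast transcription factors 1 of 30 was higher and 3 lower (median 0.09), with Prrx1 at 502 and 569 CPM and Twist2 at 188 and 139 CPM. The fibroblast identity list had 1 higher and 2 lower of 20 (median -0.08). The glucocorticoid list had 3 of 14 higher, among them the metallothionein Mt1 at 791 and 1510 CPM (0.93).

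**Figure D4:**
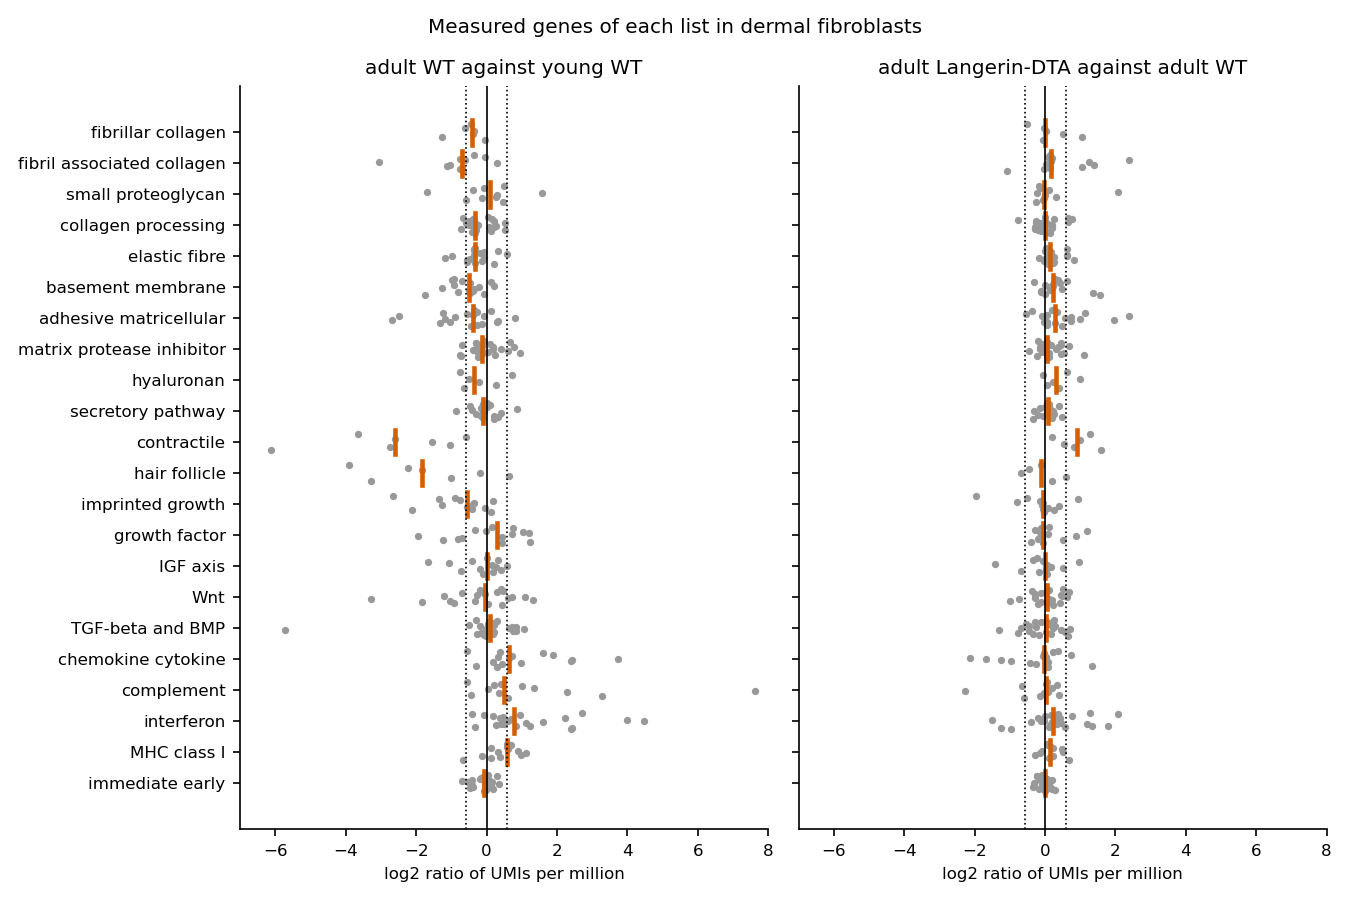
Log2 ratios of the genes of selected lists in dermal fibroblasts, adult WT over young WT and adult Langerin-DTA over adult WT, with grey points for genes, orange bars for list medians and dotted lines at 1.5-fold. In the left panel the fibril-associated collagens have a median of -0.70 and the interferon genes of 0.77, and both panels share the adult WT library.

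The second comparison asked how fibroblasts of adult ears with the Langerin-DTA transgene differed from those of adult WT ears. Of 19 matricellular and adhesive genes, 6 were higher in adult Langerin-DTA, and Igfbp3 and Bmp7 were among the genes lower there. Of 9131 tested genes, 563 (6.17%) were at least 1.5-fold higher in adult Langerin-DTA and 334 (3.66%) at least 1.5-fold lower, with a median log2 ratio of 0.07. With median-of-ratios scaling, which moves every ratio by -0.07, the counts were 405 higher and 424 lower, so the excess of higher genes depended on the scaling. The interquartile range of log2 ratios was 0.36, against 0.50 for age.

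Thbs4 (chr13:92751590-92794818, GRCm38) had the highest ranked difference. It was at 106, 18.8 and 99.3 CPM, a log2 ratio of adult Langerin-DTA over adult WT of 2.40 (1.99 to 2.82), so that adult WT stood below both other libraries. Thbs1 was at 245, 104 and 228 CPM (1.12), with the same order. Cd44 (chr2:102811141-102901665, GRCm38), the hyaluronan receptor, was at 152, 107 and 214 CPM (1.003, 0.80 to 1.20). These 3 genes were past 1.5-fold in all 12 settings. Thbs4 was found in 13.7%, 5.74% and 11.9% of fibroblasts, and 21.4% of its adult Langerin-DTA UMIs lay in 1 cell. Perichondrial-type cells had more Thbs4 (845, 566 and 379 CPM) and went the other way by genotype (-0.58). In 5 of the 7 other classes Thbs4 was at least 1.5-fold higher in adult Langerin-DTA. Mfap5, a microfibril protein, was at 498, 336 and 590 CPM (0.81), with a ratio of 0.47 in female-called cells. Col12a1 was at 190, 91.5 and 188 CPM (1.04), but 34.8% of its UMIs in adult Langerin-DTA lay in 1 cell, and without clusters 5 and 7 the ratio was 0.50.

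F3, tissue factor, which starts coagulation, was at 24.96, 60.7 and 149 CPM (1.29), with young WT lowest and adult Langerin-DTA highest. Anxa3, a marker of cluster 6, was at 31.0, 43.7 and 91.3 CPM (1.06), beside 6, 18 and 38 cells of that cluster. The vasoactive peptide gene Adm was at 33.4, 19.1 and 44.1 CPM (1.21), and Cntn4, which led cluster 2, at 21.7, 14.3 and 35.6 CPM (1.31; 0.58 with cells of 4000 to 20000 UMIs). Among interferon genes, Ifi27l2a was at 18.9, 44.6 and 112 CPM (1.33) and Isg15 at 2.01, 13.2 and 31.8 CPM (1.27). Isg15 was found in 6.70% of adult WT and 8.29% of adult Langerin-DTA fibroblasts, and 40% of its adult Langerin-DTA UMIs lay in 1 cell. The non-coding transcripts Gm14005 and 1200007C13Rik had ratios of 1.19 and 1.27.

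Igfbp3 (chr11:7206086-7213923, GRCm38) was at 328, 158 and 59.4 CPM, a log2 ratio of -1.41 (-1.69 to -1.14), and it was found in 54.8%, 37.3% and 19.7% of cells (39.3%, 27.3% and 13.0% thinned), against 1.71% to 2.42% of leukocytes. The 3 libraries were well apart, and 0 of the 7 other classes had Igfbp3 past 1.5-fold lower. In female-called and male-called cells it stayed past 1.5-fold. Bmp7, a bone morphogenetic protein, was at 35.0, 34.4 and 14.0 CPM (-1.30), and Col23a1, a transmembrane collagen, at 79.7, 50.2 and 23.8 CPM (-1.08). The ephrin receptor gene Epha7 was at 24.6, 32.6 and 10.6 CPM (-1.62) and the protocadherin Pcdh10 at 50.3, 84.0 and 37.8 CPM (-1.15). Cyp2f2, a cytochrome P450, was at 44.3, 124 and 57.3 CPM (-1.12), so adult WT was the highest library.

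For some of the lower genes the ratio moved with the choice of cells. Cxcl9 was at 60.7 and 25.5 CPM (-1.25), but with cells low in keratin and endothelial UMIs the ratio was 0.93. Cxcl10 was at 109 and 55.6 CPM (-0.98), and with Dpt of at least 1 UMI the ratio was -0.14. Sema4a (30.5 and 8.49 CPM, -1.84) and Rtl4 (38.6 and 11.9 CPM, -1.70) were also lower.

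**Figure D5:**
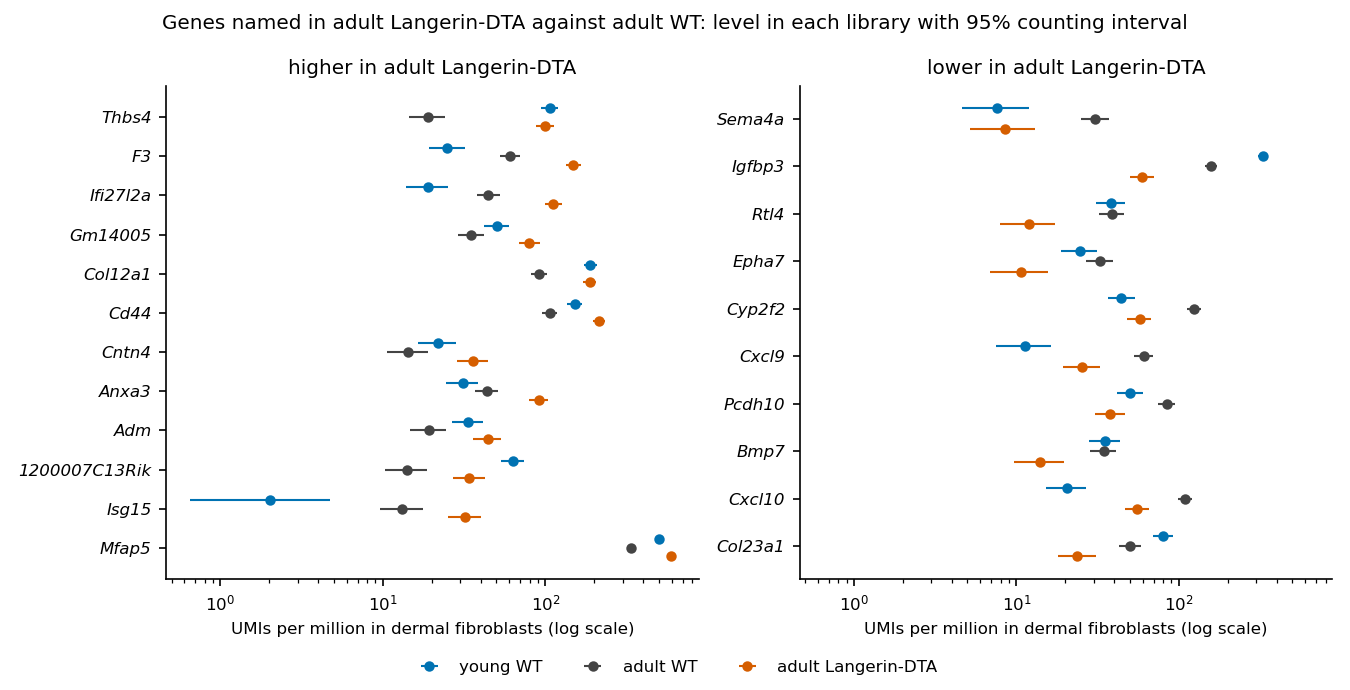
Levels of 12 genes named as higher and 10 named as lower in adult Langerin-DTA than in adult WT fibroblasts, in UMIs per 1000000 on a log axis, with 95% counting intervals; points are the 3 libraries. Igfbp3 steps down from 328 to 158 and 59.4 CPM, and for Thbs4 the adult WT point (18.8 CPM) lies below the others.

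By list, matricellular and adhesive genes were higher in 6 of 19 tested and lower in 0 (median 0.28), against 6.17% of all tested genes past the higher limit. Besides Thbs1 and Thbs4 these were Nov (39.1 against 19.4 CPM, 1.01), Wisp1 (14.0 against 3.59 CPM, 1.97), Wisp2 (38.6 against 23.3 CPM, 0.73) and Cyr61 (323 against 194 CPM, 0.73). Nov, Wisp1, Wisp2 and Cyr61 are, like Ctgf (75.1 against 50.5 CPM, 0.57), CCN family proteins, which bind integrins. Wisp1 turned to -0.61 without clusters 5 and 7 and to -0.70 with cells of 4000 to 20000 UMIs. In male-called cells Wisp1 was at 0.38, Wisp2 at 0.17 and Cyr61 at 0.20, and in female-called cells Nov was at 0.53. Fibril-associated collagens were higher in 4 of 12 and lower in 1, and fibrillar collagens in 1 of 6, which was Col11a1 (19.7 and 41.2 CPM, 1.06). Col1a2 was at 16807 and 11846 CPM (-0.50) and Sparc at 9771 and 8069 CPM (-0.28), so that the abundant collagen transcripts did not share the direction of the matricellular genes.

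Elastic fibre genes were higher in 4 of 17 and lower in 0 (median 0.15). Fbn1, the main microfibril protein, was at 1356, 1055 and 1640 CPM (0.64), but it came under 1.5-fold in 6 of 12 settings. Basement membrane genes were higher in 3 of 17 and lower in 0, among them Smoc1, a calcium-binding matrix protein, at 6.58 and 17.0 CPM (1.37). Col4a1 (313 and 384 CPM, 0.29) and Col4a2 (186 and 238 CPM, 0.35) were under the limit. Small proteoglycans had 1 of 10 higher, which was Fmod at 21.3, 6.58 and 27.6 CPM (2.07). Contractile genes were higher in 4 of 6 (median 0.91), with Tpm1 at 83.1 and 148 CPM (0.83) and Acta2 at 9.27 and 22.5 CPM (1.28; 0.36 with cells of 4000 to 20000 UMIs).

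Interferon genes were higher in 6 of 26 tested and lower in 3 (median 0.23, and -0.06 in male-called cells). Ifit1 was at 5.08 and 21.2 CPM (2.06), Oasl2 at 9.57 and 21.7 CPM (1.18) and Ifi47 at 3.29 and 11.5 CPM (1.80), whereas Gbp5 was at 19.1 and 6.79 CPM (-1.50). These 4 genes stayed past 1.5-fold in all 12 settings, in unequal directions. Gbp2 (75.4 and 89.98 CPM, 0.26), Iigp1 (80.4 and 78.9 CPM, -0.03) and Irf1 (752 and 748 CPM, -0.01) were close to level. The list of chemokines and cytokines had 2 of 15 higher (Ccl11 and Il33) and 4 lower, with Ccl11 at 120 and 198 CPM (0.72; 0.28 in male-called cells) and Cxcl2, a chemokine for neutrophils, at 14.95 and 3.396 CPM (-2.14). Il33, an alarmin cytokine, was at 16.7 and 42.4 CPM (1.34), but at 2.82 in male-called and 0.12 in female-called cells. Complement genes were lower in 3 of 12 (C2, C7 and Masp1) and higher in 0. In female-called cells C7 turned from -2.28 to 0.89 and Masp1 from -0.59 to 0.48, Masp1 was under 1.5-fold in 8 of 12 settings, and C3 (610 and 694 CPM, 0.19) was close.

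Transcription factor genes of fibroblasts were higher in 6 of 30 and lower in 1. Sox9 was at 28.2, 26.6 and 53.9 CPM (1.02) and past 1.5-fold in all 12 settings. Sox9 also marks cartilage, and the 8 cartilage markers summed to 64.0, 47.6 and 85.7 CPM, with Matn1 and Matn3 at 0 in all libraries. Cells with over 1 UMI of 4 cartilage genes had been left out by the rule. The part of cartilage RNA in the value of Sox9 was not tested. Ebf2, a factor of fat precursors, was at 66.8, 85.5 and 149 CPM (0.80; 0.38 in male-called cells). Pparg was at 29.4, 53.5 and 80.7 CPM (0.59), but under 1.5-fold in 8 of 12 settings, at 0.01 in female-called cells and -0.43 with cells low in keratin and endothelial UMIs. Adventitial markers were higher in 1 of 9 (Anxa3) with a median of 0.37, which was 0.08 with sub-clusters given equal weights in each library.

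Immediate early genes were higher and lower in 0 of 25 (median 0.01), and so were the 20 secretory pathway genes (median 0.09) and the 15 circadian genes (median -0.01). Heat shock genes were lower in 2 of 11, with Hspa1b at 67.6 and 39.5 CPM (-0.78). Fibroblast identity genes had 1 higher and 0 lower of 20 (median 0.06). Pdgfra (613 and 584 CPM), Dcn (14247 and 12715 CPM) and Lum (1728 and 1561 CPM) had ratios of -0.07, -0.16 and -0.15. Of the ligands that act on vessels, Vegfc, the growth factor of lymphatic vessels, was at 80.9, 113 and 107 CPM, with ratios of 0.49 for age and -0.09 for genotype. Its activator Ccbe1 was at 287, 377 and 303 CPM (0.40 and -0.32), so neither gene reached 1.5-fold in either comparison.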

How the data were processed

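Single-cell RNA sequencing (10x Genomics 3' chemistry) gave 1 library for each of 3 groups. The authors deposited, for each library, raw counts of UMIs per gene and cell barcode, with no normalization. The counts were made with Cell Ranger on GRCm38, version 8.01 per the submitters' processing notes and 8.0.1 per the file headers. Whether reads in introns were counted or free RNA was subtracted is not given in the sources used here. Transcripts of near-identical or overlapping genes may have been counted together. Gene names came from the deposited tables, and 35 symbols had more than 1 gene ID. Gene positions are those of GENCODE M21 (GRCm38), and promoter sequences are from RefSeq (GRCm38.p6).

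The members and the gene lists were chosen with earlier results of these data known, so they give no independent support. Of 715 list genes in 50 lists, 713 were found. Counts were summed over the fibroblasts of a library and expressed per 1000000. Ratios have exact conditional intervals for counts at 95%. A count of 0 was replaced by 3 counts. Genes were compared with at least 30 UMIs over both libraries and 10 CPM in the higher, and set apart at 1.5-fold. With 1 library per group no p-value was computed. The summing and interval steps were tested on simulated counts.

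Named genes had 100 or more UMIs in the libraries compared and 30 CPM in the higher. Their fibroblast level was at least 0.1 of that in any other class. The direction was shared by cells of each sex, at 1.25-fold or more, and 1.5-fold was reached over all cells. They were ranked by the interval limit nearest 0, and the first 12 in each direction were named, except that a few genes are not reported here. From each list, up to 4 genes with the highest level and up to 4 past 1.5-fold were eligible, and some further list genes were added after their values were seen.

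Doublet calls rested on simulated doublets, 2 for every cell of the library, compared by 50 neighbours in 30 principal components at 0.4% per 1000 barcodes, and called cells were kept in the main values. Sub-clusters used 2000 variable genes, 20 principal components, 20 neighbours and Leiden resolution 0.6, without integration. Alternatives were other Dpt limits, doublets left out, cells low in keratin and endothelial UMIs, a window of UMIs per cell, 1 sex, another scaling, equal weights of cells or of sub-clusters, other CPM filters and other resolutions. Leaving out clusters 5 and 7, or for each gene the cell with most of its UMIs, was chosen after seeing the data. Scripts ran in Python 3.11.15 with scanpy 1.11.5, leidenalg 0.10.2, igraph 0.11.9, scikit-learn 1.9.0, scipy 1.17.1, numpy 2.4.6, pandas 2.3.3 and matplotlib 3.10.9.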

Additional observations from a re-analysis of the deposited data

How the results depend on the processing

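No paired analysis was possible because each group has 1 library and the labels give no replicate numbers. The counts of genes past 1.5-fold moved by over 1.5 times in these settings: 1053 genes were lower in adult WT with cells of 4000 to 20000 UMIs, 563 were lower in adult Langerin-DTA in male-called cells, and with a filter of 50 CPM 272 were higher and 152 lower for age, and 72 higher and 53 lower for genotype. The number of sub-clusters was 5 at resolution 0.3 and 11 at 1.0. Directions turned for Hist1h1b in adult over young WT, which was at -1.06 with called doublets left out, -0.60 with cells low in keratin and endothelial UMIs, -1.08 with 4000 to 20000 UMIs, -0.89 without clusters 5 and 7 and -0.43 without the cell with most of its UMIs. For Hist1h1b, 100% of the adult WT UMIs lay in 1 cell, which these settings left out. These values therefore rest on 3 counts put in place of 0. Cxcl9 turned for genotype to 0.93 with cells low in keratin and endothelial UMIs, and the growth factor list for age to -0.10 in male-called cells. The cause was not tested for Cxcl9 or the growth factor list. Of 576 values of the named genes under other settings, 20 fell under 1.5-fold or turned, in 7 genes. Of list genes past 1.5-fold, 77 of 174 for age and 30 of 112 for genotype stayed past it in all 12 settings, and 32 and 31 turned in at least 1 of them, among them Wisp1 for genotype (-0.61 without clusters 5 and 7). Genes in few cells and genes near 10 CPM are limited by depth: a gene at 10 CPM had 23.6 to 33.4 UMIs in a library.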
